A study of Mus musculus with 15 samples.

Results

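The Wnt feedback target genes are 10 genes whose transcription is raised by β-catenin and its TCF/LEF partners and whose products mostly act back on the same pathway. They were listed by name, by a rule that uses no measured value, but with earlier results of these data known. All 10 were found among the 24134 genes of both count tables: *Axin2*, *Nkd1*, *Nkd2*, *Lef1*, *Tcf7*, *Rnf43*, *Znrf3*, *Notum*, *Apcdd1* and *Lgr5*. They were followed in primary articular chondrocytes, the cells of joint cartilage, isolated from the knees of ICR mouse pups a few days old and kept in serum at passage 0 with no Wnt protein added. Of 6 libraries in the siRNA table, 3 came from cells that received a control siRNA (siCtrl) and 3 from cells that received siRNAs against *Tnks* together with *Tnks2* (siTnks/2), the genes of the tankyrases. The 9 libraries of the drug table came in groups of 3 after 108 h with the solvent DMSO, with 10 μM XAV939 or with 10 μM IWR-1, the latter pair being small-molecule inhibitors of tankyrase. The time between transfection and harvest was not given in the sources used here. The labels mark the libraries of a group as biological replicates but tie none to an animal or litter.

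In the absence of a Wnt signal, a complex built on the scaffold Axin holds β-catenin for phosphorylation and destruction. When a Wnt protein binds Frizzled and LRP receptors, β-catenin escapes, enters the nucleus and, with TCF/LEF proteins, raises the transcription of a set of genes that includes many of the pathway's own brakes. Tankyrases attach ADP-ribose chains to Axin and mark it for degradation, so that their inhibition is known to stabilise Axin and lower β-catenin signalling in many cell types. In cartilage, Wnt signalling is known for its part in the choice between chondrocyte and other skeletal fates and in the loss of the chondrocyte phenotype.

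RefSeq start-site windows of 300 bases (250 before and 50 after the start, GRCm38.p6) were matched by gene ID for 6 of the 10 genes, in 11 windows. The window of *Axin2* is shown because *Axin2* had the largest fitted fold change of the 8 tested genes under either inhibitor, and the internal window of *Lef1* because it alone of the 11 held the letters of a TCF/LEF core motif, CTTTGA or its reverse complement TCAAAG, in capitals. The motif was searched on both strands and was present in 5257 of 32851 such windows of all genes (16.0%). A match is a description of the letters and not evidence of binding, and its absence from the *Axin2* window says nothing of sites elsewhere.
Axin2, chr11:108920099-108920398, plus strand: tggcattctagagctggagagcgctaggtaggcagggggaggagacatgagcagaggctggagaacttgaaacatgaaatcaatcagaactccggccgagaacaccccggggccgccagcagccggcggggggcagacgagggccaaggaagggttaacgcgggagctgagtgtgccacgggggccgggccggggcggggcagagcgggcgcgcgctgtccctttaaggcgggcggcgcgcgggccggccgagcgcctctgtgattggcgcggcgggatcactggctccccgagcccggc
Lef1, chr3:131156044-131156343, plus strand: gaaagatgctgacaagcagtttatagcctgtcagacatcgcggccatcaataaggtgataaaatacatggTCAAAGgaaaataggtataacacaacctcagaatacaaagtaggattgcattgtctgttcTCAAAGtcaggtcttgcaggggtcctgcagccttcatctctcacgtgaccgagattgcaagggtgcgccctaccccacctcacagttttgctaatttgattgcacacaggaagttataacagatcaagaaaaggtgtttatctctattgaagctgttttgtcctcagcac
The *Lef1* matches start at -180 and -120 from the start site, both as TCAAAG.

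Libraries held between 26857070 and 36615194 counts on genes. *Tnks* lay at 69.0, 58.4 and 70.1 CPM (counts scaled to library size) in siCtrl and at 19.5, 12.7 and 24.0 CPM in siTnks/2, a log2 fold change of -1.81 (SE 0.22, edgeR adjusted p = 0.00569). *Tnks2* lay at 118, 119.6 and 115 CPM in siCtrl and at 58.2, 44.9 and 61.2 CPM in siTnks/2, a log2 fold change of -1.10 (SE 0.11, edgeR adjusted p = 0.00384). All 12 chondrocyte markers examined were detected in every group, and their summed level was 79442 to 108154 CPM in siCtrl, 114648 to 191890 in siTnks/2, 25021 to 34144 in DMSO, 34090 to 51535 in XAV939 and 84196 to 108564 in IWR-1. A sum of 6 endothelial markers was 8.56 CPM in siTnks/2 replicate 2, with 89 counts of *Pecam1* and 64 of *Cdh5*, against 0.835 to 3.11 CPM in the other libraries, in which those genes had at most 7 and 3 counts. *Emcn* had 10 counts there and at most 3 elsewhere, but *Kdr* had 19 there and 20 in siCtrl replicate 3. The knockdown values of the feedback genes are therefore also given without siTnks/2 replicate 2. In DMSO replicate 3, *Tnks* had 2040 counts, against 860 and 688 in the other DMSO libraries.

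The genes lie on 6 chromosomes of the mouse genome build GRCm38 (mm10). *Axin2* (Entrez gene ID 12006) spans chr11:108917828-108950783 on the plus strand. The same chromosome carries *Tcf7* (21414, chr11:52246527-52283383, minus), *Rnf43* (207742, chr11:87663087-87735539, plus), *Znrf3* (407821, chr11:5276329-5444847, minus) and *Notum* (77583, chr11:120653788-120661193, minus). *Lef1* (16842) spans chr3:131110297-131224357 on the plus strand, *Nkd1* (93960) chr8:88521342-88594887 on the plus strand and *Nkd2* (72293) chr13:73818534-73847631 on the minus strand. *Apcdd1* (494504) spans chr18:62922327-62953815 on the plus strand and *Lgr5* (14160) chr10:115450314-115587780 on the minus strand. All are protein-coding. The spans of *Tcf7*, *Rnf43* and *Lgr5* overlap *Skp1*, the long noncoding RNA gene *1110028F11Rik* and *A930009A15Rik*, so reads in the shared stretches may have been assigned or dropped by the counting.

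Per kilobase of exon, the 10 genes differed widely in level. In siCtrl cells the order, as CPM per kilobase (mean ± SD, n = 3), began with *Znrf3* at 1.79 ± 0.20, *Tcf7* at 1.63 ± 0.23, *Nkd1* at 1.52 ± 0.34, *Apcdd1* at 1.16 ± 0.02 and *Lef1* at 1.11 ± 0.10, and each of these overlapped its neighbour in the order. *Axin2* at 0.563 ± 0.098 and *Notum* at 0.491 ± 0.16 overlapped each other and lay apart from *Lef1* above and from *Rnf43* below. *Rnf43* at 0.0631 ± 0.026, *Nkd2* at 0.0627 ± 0.018 and *Lgr5* at 0.0277 ± 0.021 formed the low end. In DMSO cells *Apcdd1* at 2.28 ± 0.45 and *Tcf7* at 2.11 ± 0.15 overlapped at the top, followed by *Notum* at 1.31 ± 0.07. *Axin2* stood sixth at 0.546 ± 0.069 CPM per kilobase in DMSO, apart from both neighbours, and seventh at 0.111 ± 0.036 in IWR-1. *Lgr5* and *Rnf43* were the lowest pair in each group of the drug table and overlapped each other there.

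**Figure D1:**
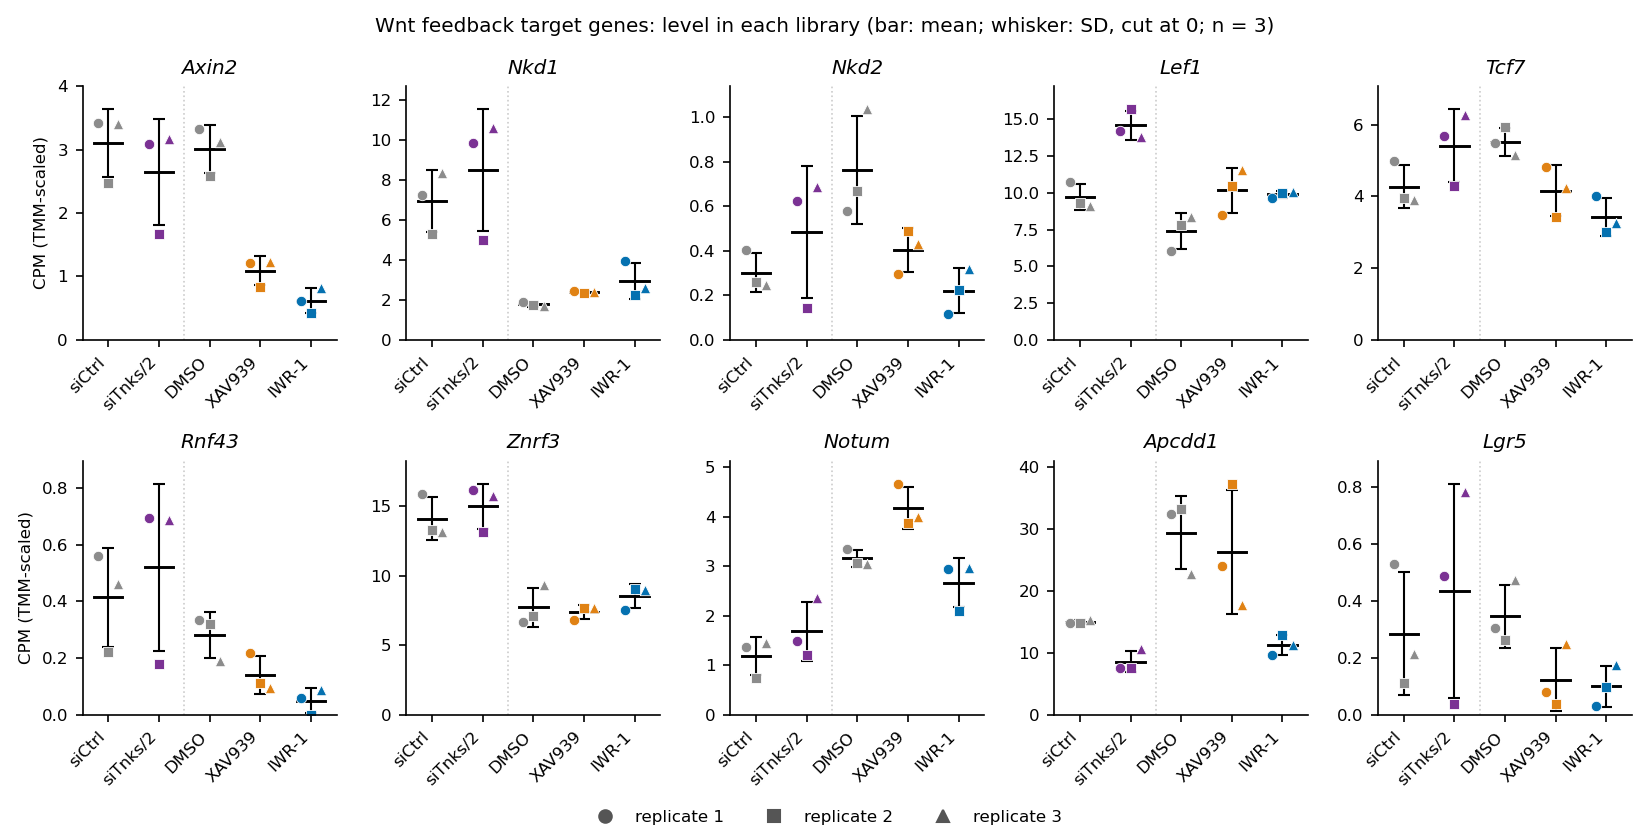
Level of each of the 10 genes in every library as CPM scaled by TMM (y axis, from 0) for the 5 groups (x axis; the dotted line parts the siRNA table from the drug table). Points are libraries with the marker giving the replicate number, bars are means and whiskers SD; *Axin2* lies between 2.59 and 3.32 CPM in DMSO and at or under 1.23 CPM in every inhibitor library.

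The first question was whether feedback genes move together when tankyrase is depleted or inhibited. After the knockdown, *Lef1* rose and *Apcdd1* fell, 2 of 10 genes tested, where 18.0% of all genes tested passed the same threshold (adjusted p under 0.05), 10.4% higher and 7.61% lower. The median log2 fold change of the 10 genes was 0.33, against -0.00 over all genes tested. With XAV939, only *Axin2* passed, 1 of 8 tested, against 17.4% of all genes (7.57% higher, 9.85% lower), and it fell. The median over the 8 was -0.11, against 0.02 over all genes. With IWR-1, *Axin2*, *Nkd2*, *Tcf7* and *Apcdd1* fell and *Nkd1* rose, 5 of 8 tested, against 36.4% of all genes (16.2% higher, 20.2% lower). The median over the 8 was -0.47, against 0.01. In the drug table *Rnf43* and *Lgr5* were left out of the test for their low counts. The inhibitor comparisons share their DMSO libraries. In bulk RNA, fewer cells of a type and less RNA per cell cannot be told apart. The summed chondrocyte markers given above were higher in the libraries of each treatment than in those of its control, in XAV939 with a small overlap, and 5, 4 and 11 of the 12 marker genes rose with siTnks/2, XAV939 and IWR-1. Markers of other cell types moved as well. The sum of 5 adipocyte markers was 4.07 to 6.25 CPM in siCtrl, 7.01 to 11.7 in siTnks/2, 36.6 to 49.7 in DMSO, 25.1 to 30.9 in XAV939 and 11.7 to 16.5 in IWR-1, where *Fabp4*, the only one tested, rose after the knockdown and fell with both inhibitors, and *Lep* was at 0 in every library of the drug table. The sum of 6 endothelial markers was 1.72 to 3.11 CPM in DMSO and 0.835 to 0.870 in IWR-1, with *Tek* and *Vwf*, the 2 tested, falling with IWR-1 and *Emcn* at 0 there. Of 6 fibroblast markers, summing to 652 to 1438 CPM in DMSO, 414 to 1339 in XAV939 and 369 to 1027 in IWR-1, *Pdgfra* and *Dpt* fell with both inhibitors, *Pi16* rose with IWR-1 and *Col14a1* rose after the knockdown. Of 6 osteoblast markers, summing to 105 to 129 CPM in DMSO, 124 to 139 in XAV939 and 113 to 143 in IWR-1, *Sp7* and *Bglap* rose with both inhibitors and *Alpl* with IWR-1. Of 6 leukocyte markers *Csf1r* fell with IWR-1, and the 6 muscle markers summed to at most 7.69 CPM in any library. The part of these changes in the results on the feedback genes was not tested.

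With the replicate number as a block, 3 genes passed with XAV939 in place of 1, *Lef1* (adjusted p = 0.0124) and *Nkd2* (adjusted p = 0.0299) joining *Axin2*, while the share of all genes rose from 17.4% to 33.4%. Without XAV939 replicate 1 or XAV939 replicate 3, 2 genes passed with XAV939. Over all genes, 691 rose and 941 fell of 13994 in the first of these fits, and 1017 and 1467 of 14038 in the second. The block added *Lef1* with IWR-1 (adjusted p = 0.0107), where 47.5% of all genes passed. After the knockdown 2 genes passed with the block, against 34.6% of all genes, and 2 without siTnks/2 replicate 2, against 20.8%. The genes past the threshold did not share a direction after the knockdown or with IWR-1, as the plot of fitted changes shows.

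**Figure D2:**
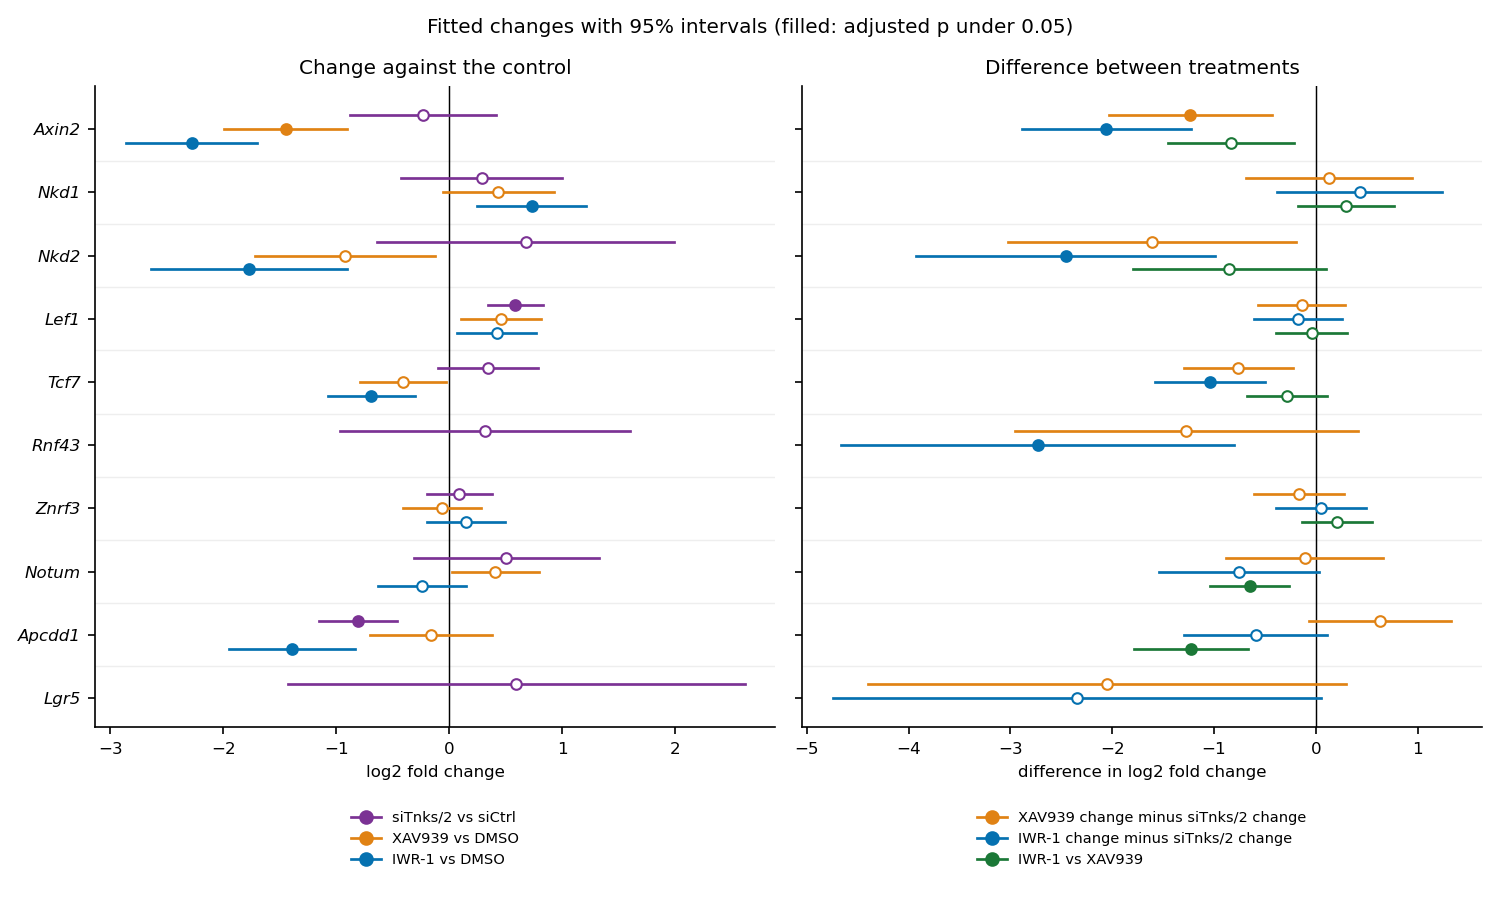
Fitted log2 fold change of each gene against its control (left, x axis) and the difference between treatments (right, x axis, difference in log2 fold change), with 95% intervals and with filled points for an adjusted p under 0.05. *Axin2* sits at -2.28 with IWR-1, -1.45 with XAV939 and -0.23 after the knockdown; *Rnf43* and *Lgr5* have no drug points at left because they were not tested there.

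*Axin2* encodes a scaffold of the β-catenin destruction complex and is a widely used transcriptional readout of the pathway. Its level was 3.42, 2.48 and 3.40 CPM in siCtrl replicates 1 to 3 (110, 67 and 111 counts) and 3.09, 1.68 and 3.17 CPM in siTnks/2 (89, 47 and 97 counts). It was 3.32, 2.59 and 3.11 CPM in DMSO (109, 89 and 99 counts), 1.21, 0.826 and 1.23 CPM in XAV939 (45, 22 and 40 counts) and 0.610, 0.417 and 0.812 CPM in IWR-1 (21, 13 and 28 counts). Every XAV939 and IWR-1 library lay under every DMSO library, every IWR-1 library lay under every XAV939 library, and the siRNA groups overlapped. In each of the 5 groups the lowest value was that of replicate 2.

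*Axin2* fell 2.73-fold with XAV939 (log2 fold change -1.45, SE 0.25, edgeR adjusted p = 0.00288) and 4.85-fold with IWR-1 (log2 fold change -2.28, SE 0.26, edgeR adjusted p = 7.74e-05). Both calls held without any single library, with log2 fold changes of -1.56 to -1.29 and of -2.55 to -2.07. After the knockdown the log2 fold change was -0.23 (95% interval -0.88 to 0.42, edgeR adjusted p = 0.585). Without siTnks/2 replicate 2, the library with the highest sum of endothelial markers, it was 0.0076. Between libraries of the same replicate number, the log2 differences were -1.41, -1.58 and -1.29 for XAV939 against DMSO and -2.33, -2.47 and -1.86 for IWR-1 against DMSO. For siTnks/2 against siCtrl they were -0.14, -0.55 and -0.10.

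*Nkd1* and *Nkd2*, the naked cuticle proteins, bind Dishevelled and dampen the signal downstream of the receptor. *Nkd1* lay at 1.89, 1.72 and 1.70 CPM in DMSO, 2.45, 2.33 and 2.38 CPM in XAV939 and 3.95, 2.25 and 2.58 CPM in IWR-1. Both inhibitor groups lay above DMSO in every library, with IWR-1 replicate 1 the highest. *Nkd1* rose with IWR-1 (log2 fold change 0.73, SE 0.22, edgeR adjusted p = 0.0237). The call rested on few libraries: without IWR-1 replicate 1 the log2 fold change was 0.44 (adjusted p = 0.118), and without any 1 of the DMSO libraries the adjusted p was 0.0518, 0.0612 and 0.0534 for replicates 1, 2 and 3. With XAV939 the log2 fold change of *Nkd1* was 0.43 (SE 0.22, adjusted p = 0.207). In the siRNA table *Nkd1* lay at 7.22, 5.28 and 8.33 CPM in siCtrl and 9.86, 4.99 and 10.6 CPM in siTnks/2, and these overlapped (log2 fold change 0.29, adjusted p = 0.532). Without siTnks/2 replicate 2 the change was 0.55 (adjusted p = 0.0712).

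*Nkd2* was a low-count gene, with 19, 23 and 33 counts in DMSO, 11, 13 and 14 in XAV939 and 4, 7 and 11 in IWR-1. Every inhibitor library lay under every DMSO library. It fell with IWR-1 (log2 fold change -1.77, SE 0.39, edgeR adjusted p = 0.00482), while with XAV939 the change was -0.92 on the log2 scale (SE 0.36, adjusted p = 0.104). In siTnks/2 its 18, 4 and 21 counts surrounded the 13, 7 and 8 counts of siCtrl (log2 fold change 0.68, SE 0.56, adjusted p = 0.424), and without siTnks/2 replicate 2 the change was 1.10 (adjusted p = 0.0614). *Nkd1* and *Nkd2* thus moved in opposite directions with IWR-1.

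*Lef1* and *Tcf7* encode DNA-binding partners of β-catenin and are themselves reported targets of the pathway. *Lef1* lay at 10.7, 9.31 and 9.12 CPM in siCtrl and 14.2, 15.7 and 13.8 CPM in siTnks/2, with no overlap. It rose after the knockdown (log2 fold change 0.58, SE 0.10, edgeR adjusted p = 0.0141), and also without siTnks/2 replicate 2 (0.53, adjusted p = 0.0154). The call was lost without siCtrl replicate 2, siCtrl replicate 3 or siTnks/2 replicate 1, at adjusted p of 0.0562, 0.0657 and 0.0526. Fewer of all genes passed in these fits as well, with the counts given below. Without any 1 library the log2 fold change of *Lef1* was 0.53 to 0.67. In the drug table *Lef1* lay at 6.01, 7.83 and 8.36 CPM in DMSO, 8.52, 10.5 and 11.5 CPM in XAV939 and 9.65, 9.95 and 10.1 CPM in IWR-1. Both inhibitor groups lay above DMSO, with log2 fold changes of 0.46 (SE 0.16, adjusted p = 0.0713) and 0.42 (SE 0.16, adjusted p = 0.0615). Both passed with the block.

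*Tcf7* lay at 5.49, 5.94 and 5.15 CPM in DMSO, 4.82, 3.42 and 4.23 CPM in XAV939 and 4.01, 3.02 and 3.25 CPM in IWR-1. Both inhibitor groups lay under DMSO in every library. *Tcf7* fell with IWR-1 (log2 fold change -0.69, SE 0.17, edgeR adjusted p = 0.0100), where without IWR-1 replicate 2 the adjusted p was 0.0517. With XAV939 the log2 fold change of *Tcf7* was -0.41 (SE 0.17, adjusted p = 0.131). In the siRNA table it lay at 4.98, 3.95 and 3.89 CPM in siCtrl and 5.69, 4.28 and 6.27 CPM in siTnks/2, which overlapped (log2 fold change 0.34, SE 0.19, adjusted p = 0.237). The value without siTnks/2 replicate 2 was 0.48 (adjusted p = 0.0687).

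*Rnf43* and *Znrf3* are membrane E3 ubiquitin ligases that remove Frizzled receptors from the cell surface. *Znrf3* differed little between groups, at 6.68, 7.10 and 9.33 CPM in DMSO, 6.82, 7.66 and 7.65 CPM in XAV939 and 7.56, 9.05 and 8.99 CPM in IWR-1. The groups overlapped, and the log2 fold changes were -0.06 (95% interval -0.41 to 0.28) with XAV939, 0.15 (-0.20 to 0.49) with IWR-1 and 0.09 (-0.20 to 0.37) after the knockdown, none past the threshold, and 0.17 (adjusted p = 0.300) after the knockdown without siTnks/2 replicate 2. *Rnf43* had 11, 11 and 6 counts in DMSO, 8, 3 and 3 in XAV939 and 2, 0 and 3 in IWR-1, and 18, 6 and 15 in siCtrl and 20, 5 and 21 in siTnks/2. Its log2 fold change after the knockdown was 0.31 (SE 0.54), and 0.71 without siTnks/2 replicate 2 (adjusted p = 0.235). Each IWR-1 library lay under every DMSO library, and the summed counts were 5 against 28, a ratio of 0.177 once scaled to library size (exact 95% interval 0.0533 to 0.463, counting error only). For XAV939 the ratio was 0.515 (0.250 to 1.01). An exact two-sided permutation test of the 3 against 3 libraries cannot give a p under 0.1, which it gave for IWR-1.

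*Notum* encodes a secreted carboxylesterase that inactivates Wnt proteins, and *Apcdd1* a membrane protein that binds Wnt and LRP. *Notum* lay at 3.35, 3.06 and 3.05 CPM in DMSO, 4.66, 3.87 and 3.98 CPM in XAV939 and 2.94, 2.09 and 2.96 CPM in IWR-1. The XAV939 libraries all lay above DMSO and the IWR-1 libraries all under it. Neither difference from DMSO passed the threshold, at log2 fold changes of 0.41 (SE 0.17, adjusted p = 0.135) and -0.24 (SE 0.18, adjusted p = 0.323). After the knockdown *Notum* lay at 1.49, 1.21 and 2.35 CPM, against 1.37, 0.739 and 1.44 CPM in siCtrl (log2 fold change 0.50, SE 0.35, adjusted p = 0.341), and without siTnks/2 replicate 2 the change was 0.69 (adjusted p = 0.183).

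*Apcdd1* lay at 14.8, 14.8 and 15.3 CPM in siCtrl and 7.56, 7.56 and 10.5 CPM in siTnks/2. The groups did not overlap, and *Apcdd1* fell after the knockdown (log2 fold change -0.81, SE 0.15, edgeR adjusted p = 0.0146), also without siTnks/2 replicate 2 (-0.73, adjusted p = 0.0146). Without siCtrl replicate 1, 2 or 3, or siTnks/2 replicate 1, its adjusted p was 0.0593, 0.0506, 0.0595 and 0.0578. Fewer of all genes passed in these fits as well, with the counts given below. Without any 1 library the log2 fold change of *Apcdd1* was -0.99 to -0.73. In the drug table it lay at 32.4, 33.1 and 22.7 CPM in DMSO, 24.0, 37.3 and 17.7 CPM in XAV939 and 9.65, 12.8 and 11.2 CPM in IWR-1. All IWR-1 libraries lay under the rest, while XAV939 overlapped DMSO. *Apcdd1* fell 2.62-fold with IWR-1 (log2 fold change -1.39, SE 0.25, edgeR adjusted p = 0.00146) and had a log2 fold change of -0.16 with XAV939 (95% interval -0.71 to 0.38, adjusted p = 0.684).

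*Lgr5* encodes a receptor for R-spondins, the secreted proteins that strengthen Wnt signalling by drawing RNF43 and ZNRF3 off the membrane. It was near the limit of detection, with 17, 3 and 7 counts in siCtrl, 14, 1 and 24 in siTnks/2, 10, 9 and 15 in DMSO, 3, 1 and 8 in XAV939 and 1, 3 and 6 in IWR-1. The libraries of both inhibitors lay under those of DMSO. The ratio of summed counts to DMSO was 0.363 (exact 95% interval 0.171 to 0.719, counting error only) with XAV939 and 0.291 (0.128 to 0.602) with IWR-1. The siRNA groups overlapped widely (log2 fold change 0.59, SE 0.85, adjusted p = 0.658), and without siTnks/2 replicate 2 the change was 1.12 (adjusted p = 0.201).

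By the separation of libraries, 1 of the 10 genes lay higher and 1 lower than siCtrl in every siTnks/2 library, where 43.8% of genes tested were separated in either direction. With XAV939, 6 of the 8 tested genes were separated from DMSO, *Nkd1*, *Lef1* and *Notum* above it and *Axin2*, *Nkd2* and *Tcf7* under it, against 33.2% of genes tested. With IWR-1, 7 of 8 were, all but *Znrf3*, against 51.1%.

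The next question was whether the treatments differed from each other. IWR-1 and XAV939 were compared at the same dose and time in a single fit. *Apcdd1* was lower with IWR-1 (log2 difference -1.23, SE 0.25, edgeR adjusted p = 0.00756) and so was *Notum* (-0.65, SE 0.18, edgeR adjusted p = 0.0280), 2 of 8 tested, where 17.6% of all genes passed. The *Notum* call was lost without XAV939 replicate 1 or 3 or IWR-1 replicate 1 or 2, at adjusted p between 0.0525 and 0.123. *Axin2* differed by -0.83 (95% interval -1.45 to -0.21, adjusted p = 0.0651), and its adjusted p was 0.0175 with the block, 0.0430 without XAV939 replicate 2 and 0.0449 without IWR-1 replicate 3. For *Lef1* the difference was -0.04 (95% interval -0.39 to 0.31) and for *Znrf3* 0.21 (-0.13 to 0.56).

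Whether an inhibitor acted differently from the knockdown was tested as an interaction over all 15 libraries, where all 10 genes passed the filter. *Rnf43* and *Lgr5* had failed that filter in the drug table, so their differences rest on drug counts too low for a test there. The difference of log2 fold changes of *Axin2* was -2.06 between IWR-1 and siTnks/2 (SE 0.39, edgeR adjusted p = 0.00149). *Tcf7* (-1.04, adjusted p = 0.00796) and *Nkd2* (-2.46, adjusted p = 0.0175) also differed. *Rnf43* (-2.73, adjusted p = 0.0393) passed too, but it entered this test only with the siRNA libraries, so its call is no separate support. Counting it, 4 of 10 differed, where 24.4% of all genes did. With at least 10 counts in every library 2 did. Each of the 4 was lower with IWR-1 relative to its control than with siTnks/2. The *Nkd2* call was lost without siTnks/2 replicate 3 (adjusted p = 0.0544), and the *Rnf43* call without siCtrl replicate 2 or 3, siTnks/2 replicate 1 or 3, DMSO replicate 1 or 2, or IWR-1 replicate 1 or 2, at adjusted p of 0.0589 to 0.0927. Without siTnks/2 replicate 2, *Lgr5* passed too (-2.88, adjusted p = 0.0323), with the same limit as *Rnf43*. Counting both, 5 of 10 passed, against 22.5% of all genes. The siRNA and drug experiments are separate tables, of which the first alone involved transfection, and these differences cannot be told apart from the kind of treatment.

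Between XAV939 and siTnks/2, *Axin2* differed by -1.23 (SE 0.37, edgeR adjusted p = 0.0429), 1 of 10 genes, where 13.5% of all genes did. The call was lost without any 1 of 10 of the 15 libraries (every siCtrl library, siTnks/2 replicate 1 or 3, DMSO replicate 1 or 3, XAV939 replicate 1 or 2, and IWR-1 replicate 1), at adjusted p of 0.0559 to 0.0950. Without siTnks/2 replicate 2 the difference was -1.47 (adjusted p = 0.0108), and *Tcf7* (adjusted p = 0.0256) and *Nkd2* (adjusted p = 0.0271) passed as well, 3 of 10 against 10.7% of all genes. With the replicate block 4 genes passed, *Tcf7* (adjusted p = 0.0181), *Nkd2* (0.0323) and *Lgr5* (0.0492) joining *Axin2* (0.00248), where the share of all genes was 28.2%. With the block, *Lgr5* (0.0244) and *Notum* (0.0275) also passed between IWR-1 and siTnks/2, where 36.3% of all genes did. The counts of *Lgr5* were too low for a test in the drug table, which limits its calls with the block. *Apcdd1* and *Lef1*, the called genes of the knockdown, showed no difference past the threshold: the interval was -0.06 to 1.33 for *Apcdd1* and -0.57 to 0.29 for *Lef1* against XAV939, and -1.29 to 0.11 and -0.61 to 0.25 against IWR-1.

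The other genes of the pathway gave the setting of these values. Of 94 listed genes, 72 were tested in each table. After the knockdown 16 rose and 7 fell, where 10.4% of all genes rose and 7.61% fell. The 7 include *Tnks* and *Tnks2*, the targets of the siRNAs, which also passed with the replicate block and without any single library. With XAV939 9 rose and 17 fell, against 7.57% and 9.85% of all genes, and with IWR-1 12 rose and 23 fell, against 16.2% and 20.2%. With the replicate block the knockdown count was 21 up and 21 down, and the share of all genes went from 18.0% to 34.6%. Without siTnks/2 replicate 2 it was 19 up and 11 down, against 20.8% of all genes. Without any 1 siCtrl library or siTnks/2 replicate 1 the count was 12 to 14 in all. Over all genes tested, 413 rose and 195 fell without siCtrl replicate 1, against 1419 and 1040 with all libraries. Those counts were 614 and 316 without siCtrl replicate 2, 454 and 224 without siCtrl replicate 3, and 546 and 254 without siTnks/2 replicate 1. These fits tested between 13796 and 13842 genes. The median log2 fold changes over the 72 were 0.08, -0.16 and -0.21, against medians near 0 over all genes.

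Among the Wnt ligands, *Wnt4* rose with all 3 treatments, at log2 fold changes of 1.20 (SE 0.21, edgeR adjusted p = 0.0135) after the knockdown, 1.37 (SE 0.24, 0.00331) with XAV939 and 1.35 (SE 0.24, 0.00126) with IWR-1. *Wnt2b* also rose after the knockdown, at 1.44 (SE 0.37, edgeR adjusted p = 0.0407). Its level was low, at 0.280 ± 0.14 CPM in siCtrl and 0.773 ± 0.15 in siTnks/2 (SD, n = 3), so this fold is uncertain. *Wnt10b* rose with all 3 treatments (0.76, 0.89 and 0.72 in the same order). *Wnt10a* fell with all 3, at -1.91 (adjusted p = 0.0105), -1.24 (adjusted p = 0.0495) and -2.82 (adjusted p = 0.000513). *Wnt9a* fell from 4.84 ± 1.16 CPM in DMSO to 1.24 ± 0.53 with XAV939 and 0.480 ± 0.22 with IWR-1 (SD, n = 3), while *Wnt7b* rose after the knockdown (0.83) and fell with XAV939 (-1.63) and IWR-1 (-0.99). In all, 5 of 9 tested ligands rose and 1 fell after the knockdown, where 10.4% of all genes rose and 7.61% fell. Of 8 tested with XAV939, 2 rose and 4 fell (7.57% and 9.85% of all genes), and with IWR-1 2 rose and 3 fell (16.2% and 20.2%).

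Among R-spondins and their receptors, *Lgr4* rose after the knockdown (0.54) and with IWR-1 (0.48), *Rspo1* rose with XAV939 (1.45) and IWR-1 (2.03), and *Rspo2* fell with IWR-1 (-1.12, adjusted p = 0.00015). Of the Wnt receptors, *Fzd9* rose with each treatment, from 84.7 ± 3.46 to 136 ± 15.1 CPM after the knockdown and from 9.60 ± 4.72 CPM in DMSO to 42.6 ± 9.72 with XAV939 and 82.6 ± 12.7 with IWR-1. *Fzd4* rose after the knockdown (1.28) and *Fzd6* with IWR-1 (0.77). *Fzd1* fell with XAV939 (-1.16) and IWR-1 (-1.32), *Fzd7* with XAV939 (-0.54) and the co-receptor *Lrp5* with IWR-1 (-1.15).

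Among secreted antagonists, *Frzb*, which binds Wnt proteins outside the cell and is abundant in cartilage, rose at 2.04 (SE 0.18, edgeR adjusted p = 0.00298) after the knockdown, 1.54 (SE 0.34, 0.0118) with XAV939 and 2.41 (SE 0.35, 0.000339) with IWR-1. *Sfrp5* rose after the knockdown (2.29) and with IWR-1, where it lay at 0.741 ± 0.56 CPM against 0.0397 ± 0.034 in DMSO, too low for a fold. *Sfrp2* fell with XAV939 (-2.57) and IWR-1 (-3.10), *Wif1* with both (-1.33 and -0.94) and *Dkk3* with both (-0.66 and -1.18). Of 10 tested antagonists, 4 passed the threshold after the knockdown, all upward, where 10.4% of all genes rose. With XAV939 1 rose and 5 fell, against 7.57% and 9.85% of all genes, and with IWR-1 2 rose and 6 fell, against 16.2% and 20.2%.

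Of 15 tested genes of the destruction complex and its regulators, 5 passed after the knockdown (18.0% of all genes), the targeted *Tnks* and *Tnks2* among them, 2 with XAV939 (17.4%) and 1 with IWR-1 (36.4%). *Ctnnb1*, which encodes β-catenin itself, rose after the knockdown (0.24, adjusted p = 0.0484), as did *Csnk1a1* (0.24, adjusted p = 0.0488), and *Csnk1a1* fell with XAV939 (-0.37). *Tnks2* fell with XAV939 (-0.41, adjusted p = 0.0394), a call that held in 2 of 9 fits that left out 1 library. It was lost without DMSO replicate 1 or 3, XAV939 replicate 1 or 2, or any 1 IWR-1 library (adjusted p up to 0.112), with upper-quartile scaling (0.0551) and in a fit of only DMSO and XAV939 (0.0942). *Apc2* fell after the knockdown (-0.89, adjusted p = 0.0095) and with IWR-1 (-0.97, adjusted p = 0.00152). Among TCF partners, *Pygo2* fell after the knockdown (-0.27), *Tle2*, a corepressor, rose with XAV939 (1.02), and *Tle3* and *Ctnnbip1* fell with IWR-1 (-0.59 and -0.42).

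Other genes reported as β-catenin/TCF targets in other tissues also went both ways. *Fosl1* fell with each treatment, at -0.90 (SE 0.22, edgeR adjusted p = 0.0361) after the knockdown, -1.11 (SE 0.17, 0.0018) with XAV939 and -2.68 (SE 0.18, 3.38e-06) with IWR-1. *Myc* fell after the knockdown (-0.75) and rose with IWR-1 (0.58, adjusted p = 0.00707), and *Ascl2* fell with XAV939 (-1.34) and IWR-1 (-1.81). *Bambi*, a pseudoreceptor of the TGF-β family, rose at 0.76, 1.37 and 2.04 in the same order. *Prickle1* rose after the knockdown (0.76), *Ephb3* with XAV939 (0.46) and *Ephb2* with XAV939 (0.42) and IWR-1 (0.99). Of 12 tested, 2 rose and 2 fell after the knockdown (10.4% and 7.61% of all genes), 3 and 3 with XAV939 (7.57% and 9.85%) and 3 and 5 with IWR-1 (16.2% and 20.2%).

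**Figure D3:**
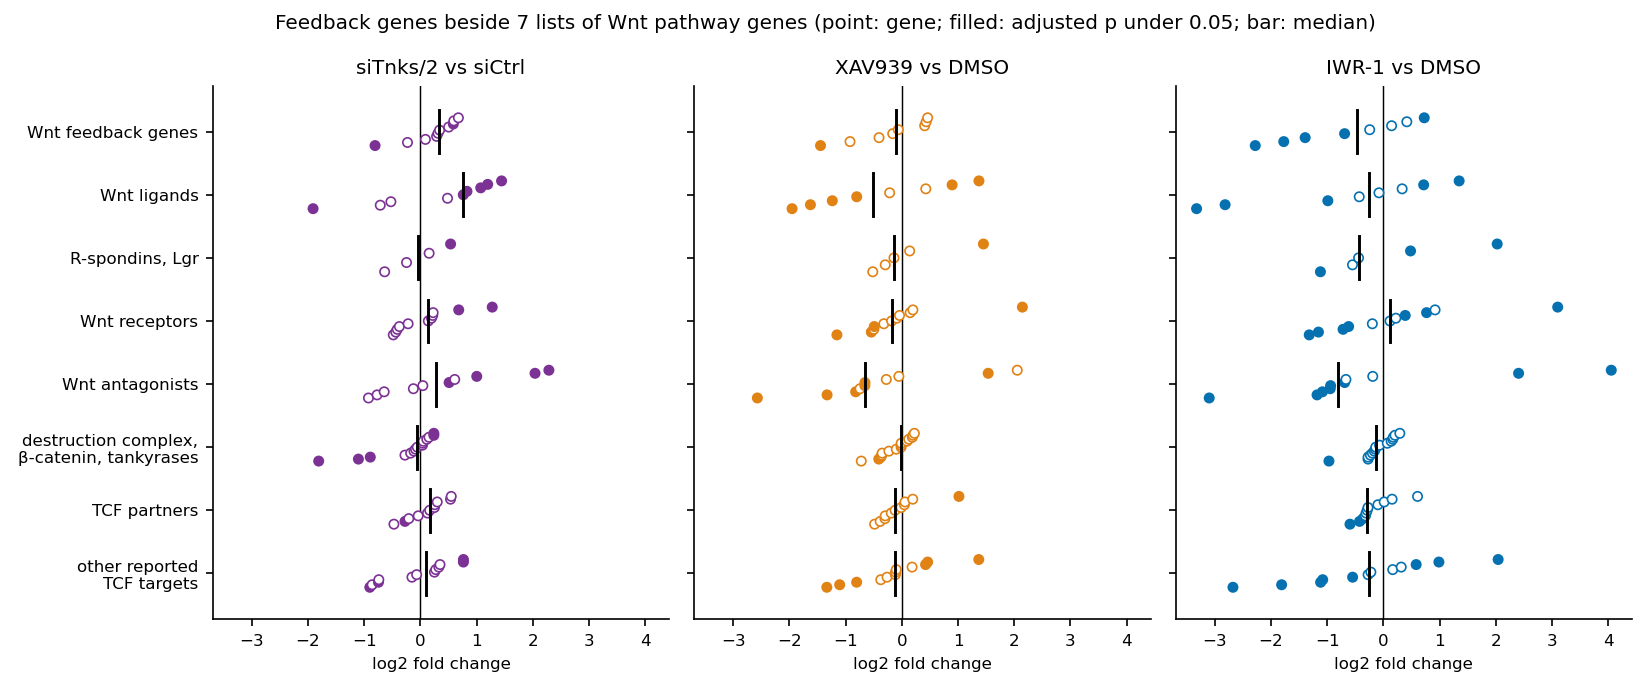
Log2 fold change (x axis) of the feedback genes and of the genes of 7 other Wnt pathway lists (rows) in the 3 comparisons with a control (panels); points are genes, filled where the adjusted p is under 0.05, and bars are list medians. The feedback row has 2, 1 and 5 filled points from left to right.

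The genes whose pattern was most like that of *Axin2* were found by Pearson's r of log2 CPM over the 15 libraries, after the mean of the control libraries of each table was taken off, among 14270 genes. The first was *Lox*, which encodes lysyl oxidase, an enzyme that crosslinks collagen and elastin (r = 0.995), with mean levels of 4793 CPM in DMSO, 1890 in XAV939 and 1029 in IWR-1, and of 1187 in siCtrl and 945 in siTnks/2. *Steap2* (r = 0.979), *Ahr*, the aryl hydrocarbon receptor (r = 0.979), *Nptn* (r = 0.978) and *Colec12* (r = 0.978) followed. The 15 points fall into 5 groups and share control libraries, so r is a description of the steps between groups and carries no test. Of the other feedback genes, *Rnf43* (r = 0.893, rank 390), *Tcf7* (0.860, rank 692), *Nkd2* (0.839, rank 890) and *Lgr5* (0.774, rank 1492) were the most like *Axin2*, and *Lef1* (-0.48) and *Nkd1* (-0.44) ran the other way. *Rnf43*, *Nkd2* and *Lgr5* had 33 counts or fewer in every library, so their r and ranks are uncertain.

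**Figure D4:**
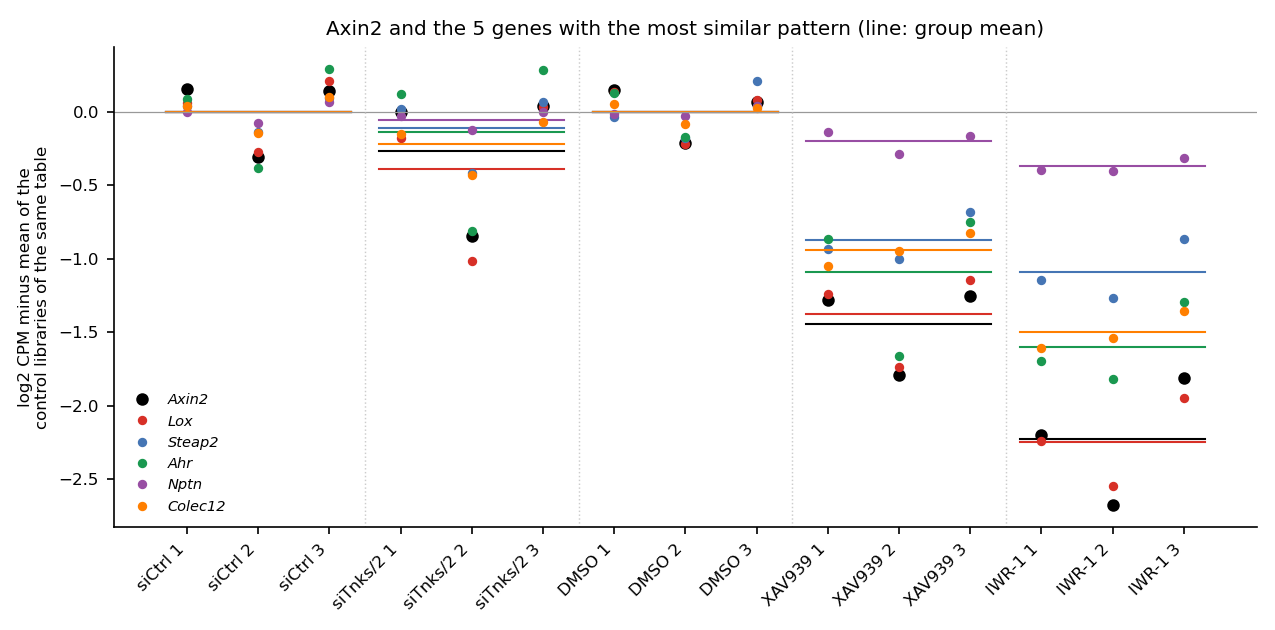
Log2 CPM of *Axin2* and of the 5 genes most like it in each library, minus the mean of the control libraries of the same table (y axis), with libraries on the x axis and group means as lines. *Axin2* and *Lox* lie lowest in siTnks/2 replicate 2 within the siRNA table and reach their lowest values in IWR-1 replicate 2.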

How the data were processed

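RNA was measured in 15 libraries of primary mouse articular chondrocytes, 3 per group, prepared with a TruSeq Stranded mRNA kit. The submitters' processing notes name Trimmomatic (0.32) for trimming, TopHat2 (2.0.13) for alignment, HTSeq (0.6.1p1) for counting and mm10 as the build. The annotation is not given in the sources used here, nor is the counting's strand option. The values deposited by the authors are raw counts per Entrez gene ID, and 24051 of 24134 IDs matched a symbol.

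Count models were fitted in edgeR 4.0.16 (R 4.3.3) with filterByExpr, TMM scaling and the quasi-likelihood F test, on each whole table (13672 genes in the siRNA table, 13873 in the drug table, 14271 in the joint model for interactions). P-values were adjusted by the Benjamini-Hochberg method across the whole table, with 0.05 as the threshold, and measure the spread between the libraries of a group. Fitted log2 fold changes use edgeR's default prior count, and log2 CPM values, from which pairing, differences between single libraries and likeness to *Axin2* were taken, a prior count of 2. Ratios of summed counts carry exact intervals for counting error alone, since the reads hold no molecular identifiers. CPM per kilobase divides by the total exon length of a gene.

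The feedback genes, pathway lists and marker lists were chosen with earlier results of these data known. The pathway genes named were picked in each list and comparison as at most the 2 each way with the largest log2 fold change past the threshold. For a gene picked in 1 comparison, changes past the threshold in the others may also be given. Other genes past the threshold are counted but not named. The genes like *Axin2* are the 5 with the highest r. Libraries of a table with the same replicate number, taken from the titles and column names, were checked for pairing. Their deviations from the group means correlated at 0.143 to 0.553 in 9 pairs of the drug table and 0.424 to 0.519 in 3 pairs of the siRNA table, all above the limit of 0.1. Libraries of different numbers correlated at -0.489 to 0.318 in 18 pairs of the drug table and -0.409 to 0.0972 in 6 pairs of the siRNA table. In the drug table the ranges thus overlapped, and the numbers mark pairs less clearly there. Alternatives replaced TMM by RLE or upper-quartile scaling, the filter by none or by 10 counts in every library, edgeR by DESeq2 1.42.0 and the drug fit by its 2 groups compared, added the replicate block, or left out each library. The fits were also run on simulated counts with the same spread for every gene and no replicate effect. That run does not measure their error in these libraries.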

Additional observations from a re-analysis of the deposited data

How the results depend on the processing

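The count of feedback genes past the threshold with XAV939 was 1, and 2 with upper-quartile scaling and 3 with the replicate block. With upper-quartile scaling 1338 of all 13873 genes tested rose and 1174 fell. For the difference between XAV939 and siTnks/2 the feedback count was 1, and in edgeR 0 with upper-quartile scaling (*Axin2* at an adjusted p of 0.0516) or with no filter (0.0501). It was 2 with DESeq2 and 4 with the replicate block. Over all genes, 1011 were higher and 907 lower with upper-quartile scaling, 659 and 968 with no filter, and 1006 and 1426 with DESeq2. For the difference between IWR-1 and siTnks/2 the feedback count was 4, and 2 with at least 10 counts in every library, where 7 genes were tested. Over all 12432 genes tested there, 1395 were higher and 1734 lower. Pairing by the replicate block gave 42 other pathway genes after the knockdown in place of 23, the targeted *Tnks* and *Tnks2* counted in both. Beside the values already given with the block, it passed *Axin2* between IWR-1 and XAV939 (adjusted p = 0.0175), *Tnks* between XAV939 and siTnks/2 (0.0164) and *Tnks2* with IWR-1 (0.0300), and it changed no other call on the feedback genes, *Tnks* or *Tnks2*. Without the filter, *Rnf43* (-2.43, adjusted p = 0.0140) and *Lgr5* (-1.76, adjusted p = 0.0491) passed with IWR-1.

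Each fit without 1 library gave 0 to 2 feedback genes and 12 to 30 other pathway genes after the knockdown. Feedback genes numbered 1 to 2 with XAV939, 4 to 7 with IWR-1 and 1 to 3 between IWR-1 and XAV939. They numbered 0 to 3 between XAV939 and siTnks/2 and 2 to 5 between IWR-1 and siTnks/2. Over all genes, 413 to 1562 rose and 195 to 1306 fell after the knockdown. The ranges up and down were 477 to 1017 and 845 to 1467 with XAV939, and 1624 to 2603 and 2141 to 3066 with IWR-1. Between the inhibitors they were 528 to 1360 and 815 to 1684. Against siTnks/2 they were 470 to 939 and 771 to 1220 for XAV939, and 1044 to 1668 and 1622 to 2268 for IWR-1. None of the results whose sign turned when a library was left out had passed the threshold with all libraries. Their log2 ranges were -0.38 to 0.0076 for *Axin2* and -0.14 to 1.39 for *Lgr5* after the knockdown, -0.16 to 0.085 for *Znrf3* and -0.50 to 0.044 for *Apcdd1* with XAV939, -0.51 to 0.47 for *Tnks* with IWR-1, and -0.16 to 0.064 for *Lef1* between the inhibitors. Between XAV939 and siTnks/2 they were -0.13 to 0.32 for *Nkd1*, -0.26 to 0.00072 for *Znrf3* and -0.29 to 0.21 for *Notum*, and between IWR-1 and siTnks/2 -0.065 to 0.22 for *Znrf3*. Of 1111 values of single genes under an alternative, 1014 kept their direction and side of the threshold. The cause of these changes was not tested. The depth limits *Rnf43*, *Nkd2* and *Lgr5* most, at 33 counts or fewer in every library.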
